A study of Homo sapiens with 17 samples.

Results

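Epithelial-mesenchymal transition (EMT) is the program by which epithelial cells loosen their junctions and take on features of motile mesenchymal cells. It is set largely by the balance between transcription factors that repress epithelial genes, among them the SNAI, ZEB and TWIST families, and factors that keep the epithelial state, such as GRHL2, OVOL1 and the splicing regulators ESRP1 and ESRP2. In colon cancer cells, the repressors bind E-box sequences in the promoters of genes such as CDH1, which encodes E-cadherin, whereas vimentin (VIM) is the intermediate filament protein most often used as a sign of the mesenchymal state. These 10 genes, namely SNAI1, SNAI2, ZEB1, ZEB2, TWIST1, VIM, GRHL2, OVOL1, ESRP1 and ESRP2, were taken by their symbols from the 26457 genes of the deposited mRNA-seq table, a rule that uses no measured value. In SW480 cells depleted of mutant p53 (mutp53), VIM and ZEB1 were higher and ESRP1 was lower than in control cells. TNF-α raised VIM and lowered ESRP1 in both lines, and mutp53-depleted cells treated with TNF-α had the highest VIM and ZEB1 and the lowest ESRP1 of the 4 groups. SNAI1 passed the test in no comparison.

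SW480 cells, a line from a human colon tumour, carry a mutated p53. The mRNA-seq experiment used 2 SW480 lines that stably express an inducible short hairpin RNA (shRNA), against LacZ in control cells and against p53 in mutp53-depleted cells. RNA was taken from untreated cells (0 h) and from cells given 12.5 ng/ml TNF-α for 16 h. Each of the 4 groups had 2 biological replicates, named A and B as in the column names of the table. Per the study's methods, both lines were grown in 1.5 µg/ml puromycin and induced with 1 µg/ml doxycycline, so the controls carry a vector and both drugs too. The sources describe 1 line for each hairpin, so an effect of the hairpin and a difference between the lines cannot be told apart, and p-values measure only the spread between these replicates. The deposited values are reads on the exons of each gene, scaled to the same total in every library, and are called normalized reads here. Reads on genes numbered 6108488 to 13809578 per library, replicate A being the deeper in every group, and 1 read was worth 0.67 to 1.515 normalized reads. Of 12 markers of colon epithelium, KRT8, KRT18, KRT19 and EPCAM were abundant, and CDX2 had between 462 and 1082 normalized reads. VIL1 went from 545 and 480 in untreated control libraries to 8.71 and 12.3 with depletion at 0 h. HNF4A went from 546 and 547 to 135 and 128. EPCAM, KRT8 and KRT18 were lower there too. KRT19 was higher, at 7394 and 7114 in untreated control libraries and 8647 and 8716 with depletion at 0 h. CDX2 was not lower, at 981 and 965 and then 1038 and 1082. KRT20, LGR5, GPA33 and CDH17 had 8.64 normalized reads or fewer in every library, and CDX1 had no read in any library.

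The 10 genes fell into those that are well measured and those that are barely read or not read. The limit for testing was a mean of 2.5 normalized reads over the 8 libraries, and 6 genes reached it (SNAI1, SNAI2, ZEB1, VIM, ESRP1 and ESRP2), as did 14800 genes in all. The other 4 were ZEB2, TWIST1, GRHL2 and OVOL1. TWIST1, a basic helix-loop-helix repressor on chromosome 7, had 0 reads in every library, which allows up to 3 reads, or between 2.01 and 4.54 normalized reads depending on the library. ZEB2, the close relative of ZEB1, was also listed at 0 in every library, but the table counts it only on a short non-coding transcript (NR_033258, 3005 bases of exon), so its value does not cover the coding transcript. GRHL2, a factor that keeps junction genes active, had 1 read in control cells at 0 h (replicate B) and 1 read in mutp53-depleted cells at 0 h (replicate B), and no read elsewhere. OVOL1, a zinc finger repressor of mesenchymal genes, had 0.73, 1.51, 1.93 and 1.42 normalized reads in the control libraries and 2.68, 2.74, 0.84 and 2.47 in the mutp53-depleted libraries. At this depth no difference in TWIST1, GRHL2 or OVOL1 was detectable.

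The promoters of VIM and ZEB1 are shown because these members rose with depletion at both times, and because the SNAI, ZEB and TWIST factors act through E-boxes in promoters. RefSeq promoter windows (GRCh38.p14) were found for 3 of the 10 genes, namely VIM, ZEB1 and ZEB2, with 7 start sites listed for ZEB1, of which the most upstream is shown. Each sequence gives the 250 bases before the start, 5′ to 3′ on the gene's strand, with the E-box CACCTG and the GC box GGGCGG, each sought on both strands, in capitals.
VIM, chr10:17227991-17228240, plus strand: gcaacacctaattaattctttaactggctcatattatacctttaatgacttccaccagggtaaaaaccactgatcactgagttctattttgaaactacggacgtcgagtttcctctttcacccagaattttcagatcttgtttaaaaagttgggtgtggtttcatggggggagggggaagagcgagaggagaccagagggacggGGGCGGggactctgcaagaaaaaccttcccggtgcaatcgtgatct
ZEB1, chr10:31318167-31318416, plus strand: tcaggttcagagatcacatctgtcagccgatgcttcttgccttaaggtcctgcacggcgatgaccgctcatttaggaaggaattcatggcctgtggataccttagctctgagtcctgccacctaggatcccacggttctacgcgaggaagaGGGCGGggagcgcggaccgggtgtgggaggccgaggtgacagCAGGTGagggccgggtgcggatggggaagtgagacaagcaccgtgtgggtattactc
The ZEB1 window held 1 E-box of the form CACCTG, which began 57 bases before the start, and 1 GC box, which began 99 bases before it. The VIM window held no E-box of this form and 1 GC box, which began 46 bases before the start. Other forms of the E-box were not sought. Over the 7 ZEB1 starts, 2 windows held the E-box and 1 the NF-κB motif, which began 175 bases before that start. Of all 35116 promoter windows of the same length, 17.5% held this E-box and 42.6% the GC box on either strand, and the motifs did not overlap each other in the windows shown. The NF-κB motif was found in neither window shown and in 5.21% of all windows. These matches are letters only, and no binding was measured here. The file's own coordinates are those of hg19, in which VIM is NM_003380 at chr10:17270258-17279592 and ZEB1 is NM_001174094 at chr10:31610064-31818742, both on the plus strand. Windows were matched by gene symbol, so the ZEB1 window shown need not be the promoter of this transcript.

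VIM was the most abundant of the 10 genes. In control cells it had 5351 and 5274 normalized reads at 0 h (replicates A and B) and 8829 and 8518 after TNF-α. In mutp53-depleted cells it had 10853 and 10829 at 0 h and 16600 and 17607 after TNF-α. Every library of a group lay above every library of the group before it in this order, so the 4 groups do not overlap. Per kilobase of exon, its rank among all genes listed went from 179 in untreated control cells to 103 with TNF-α, 69 with depletion and 37 with both. Fold changes below come from limma on log2(normalized reads + 1), fitted over all 8 libraries, with Benjamini-Hochberg adjustment over the 14800 genes tested, and "rose" and "fell" mean an adjusted p under 0.05, while "called" also needs a change of at least 2-fold. Depletion raised VIM by a log2 fold change of 1.03 at 0 h (SE 0.07, limma adjusted p = 7.53e-10) and 0.98 at 16 h (SE 0.07, limma adjusted p = 1.46e-09), which places the first just inside and the second just outside the 2-fold limit. With TNF-α it rose by 0.71 in control cells (SE 0.07, limma adjusted p = 2.64e-07) and 0.66 in mutp53-depleted cells (SE 0.07, limma adjusted p = 8.81e-07). The difference between these 2 responses was −0.05 (95% interval −0.25 to 0.15, limma adjusted p = 0.885). Neighbouring genes on chromosome 10 were also higher in mutp53-depleted cells, the median of the 51 tested genes around VIM being 0.43 at 0 h and 0.17 at 16 h, and with that median removed VIM was higher by 0.60 at 0 h (limma adjusted p = 1.73e-06) and 0.81 at 16 h.

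**Figure D1:**
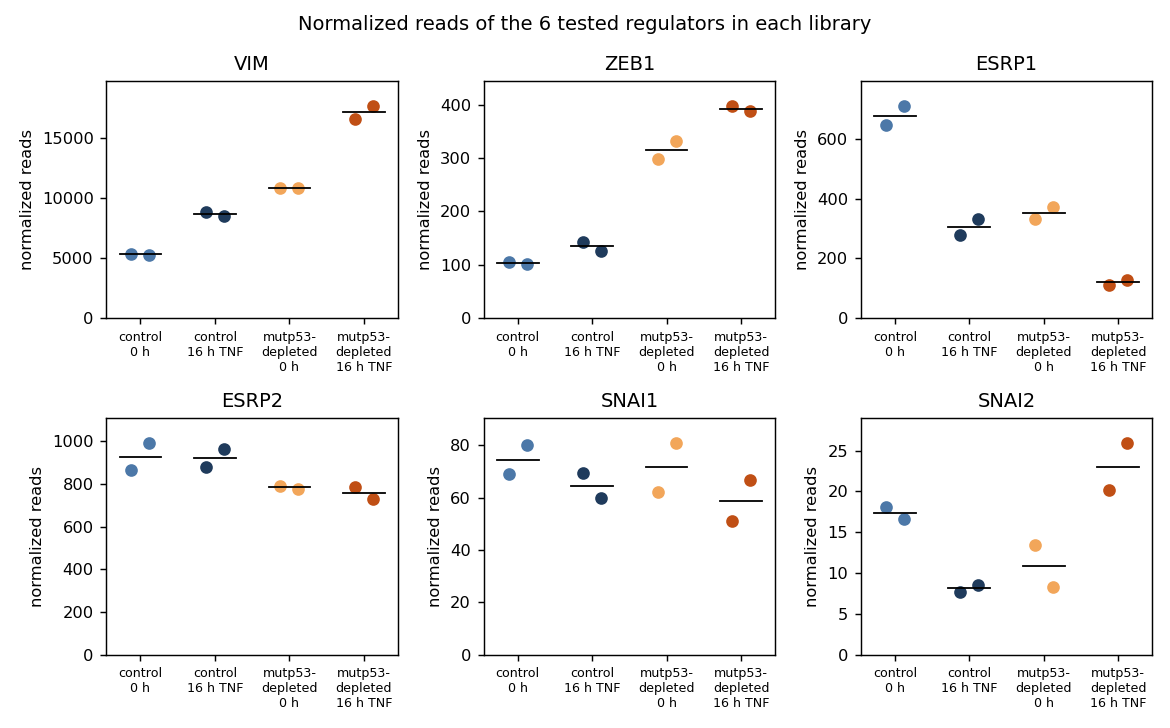
Normalized reads (y axis, linear, from 0) of the 6 tested regulators in each of the 8 libraries (points, replicates A and B) by group (x axis), with the mean of the 2 replicates as a line. VIM and ZEB1 are highest, and ESRP1 lowest, in mutp53-depleted cells after 16 h of TNF-α, whereas SNAI1 overlaps between groups.

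ZEB1, a zinc finger repressor of CDH1 and of epithelial genes, was present at a much lower level. Its normalized reads were 105 and 102 in untreated control cells, 143 and 125 after TNF-α, 299 and 332 in mutp53-depleted cells at 0 h and 397 and 388 after TNF-α. All 4 mutp53-depleted libraries lay above all 4 control libraries. Depletion raised ZEB1 by a log2 fold change of 1.60 at 0 h (SE 0.12, limma adjusted p = 6.07e-09) and 1.54 at 16 h (SE 0.12, limma adjusted p = 9.24e-09), and both were called. TNF-α raised it by 0.37 in control cells (SE 0.12, limma adjusted p = 0.0327), but the adjusted p was over 0.05 in 5 of the 18 alternatives tried, namely with DESeq2 (0.114) and without either control library at 0 h (0.072 and 0.119), replicate A of control cells at 16 h (0.177) or replicate B of mutp53-depleted cells at 0 h (0.0513). In mutp53-depleted cells the change with TNF-α was 0.32 (SE 0.12, limma adjusted p = 0.0706). It passed in 5 of the 18 alternatives, namely with median-ratio scaling (adjusted p = 0.0305), edgeR's quasi-likelihood (0.00681) and exact (0.00283) tests, the neighbours' median removed (0.00939) and without replicate B of control cells at 16 h (0.0498). The difference between the lines was −0.06 (95% interval −0.43 to 0.31). The median of the tested genes around ZEB1 was 0.28 at 0 h and 0.12 at 16 h, and with it removed ZEB1 was higher by 1.32 and 1.42.

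SNAI1, a zinc finger repressor of CDH1, passed no test. Its normalized reads were 68.9 and 80.3 in untreated control cells, 69.6 and 59.8 after TNF-α, 62.3 and 80.9 in mutp53-depleted cells at 0 h and 51.1 and 66.6 after TNF-α. The groups overlap in each comparison. The largest of its 4 changes, that with TNF-α in mutp53-depleted cells, was −0.28 (95% interval −0.74 to 0.18, limma adjusted p = 0.389).

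SNAI2, which encodes the related repressor SLUG, was read 121 times in all 8 libraries together. In control cells it had 18.1 and 16.7 normalized reads at 0 h and 7.73 and 8.54 after TNF-α. In mutp53-depleted cells it had 13.4 and 8.23 at 0 h and 20.1 and 25.9 after TNF-α. Both control values were lower after TNF-α and both mutp53-depleted values were higher, with no overlap between 0 h and 16 h in either line. Depletion gave a higher SNAI2 at 16 h, with a log2 fold change of 1.39 (SE 0.39, limma adjusted p = 0.00666), and −0.67 at 0 h (SE 0.39, limma adjusted p = 0.162). The change with TNF-α was −1.01 in control cells (limma adjusted p = 0.0683) and 1.05 in mutp53-depleted cells (limma adjusted p = 0.058), and their difference was 2.06 (SE 0.56, unadjusted p = 0.00169, limma adjusted p = 0.0558). With DESeq2 the 16 h call was lost at an adjusted p of 0.0545, and it was also lost without replicate B of mutp53-depleted cells at 16 h (limma adjusted p = 0.0627).

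ESRP1 and ESRP2 encode paralogous splicing regulators that promote the epithelial forms of many transcripts. ESRP1 had 648 and 709 normalized reads in untreated control cells and 277 and 330 after TNF-α. In mutp53-depleted cells it had 332 and 372 at 0 h and 112 and 127 after TNF-α. Its untreated control libraries were the highest and the mutp53-depleted, TNF-α-treated libraries the lowest, with those given TNF-α alone or depletion alone in between. Depletion lowered ESRP1 by a log2 fold change of −0.95 at 0 h (SE 0.12, limma adjusted p = 2.13e-06), just under the 2-fold limit, and −1.34 at 16 h (SE 0.12, limma adjusted p = 2.6e-08). TNF-α lowered it by −1.16 in control cells (SE 0.12, limma adjusted p = 4.8e-07) and −1.55 in mutp53-depleted cells (SE 0.12, limma adjusted p = 1.44e-08). The difference between the 2 responses, −0.39, had an unadjusted p of 0.0293 and did not pass the adjustment (limma adjusted p = 0.283). From untreated control cells to TNF-α-treated mutp53-depleted cells the mean of ESRP1 went from 679 to 119, a ratio of 5.69, while the mean of VIM rose 3.22-fold and that of ZEB1 3.81-fold.

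ESRP2 moved little. Its normalized reads were 863 and 991 in untreated control cells, 880 and 965 after TNF-α, 792 and 775 in mutp53-depleted cells at 0 h and 786 and 731 after TNF-α. All mutp53-depleted libraries lay below all control libraries, whereas TNF-α groups overlap with their 0 h groups. ESRP2 fell by 0.24 on the log2 scale with depletion at 0 h (SE 0.09, limma adjusted p = 0.0249) and by 0.28 at 16 h (SE 0.09, limma adjusted p = 0.01). Its neighbours on chromosome 16 were lower too, with medians of −0.17 and −0.18, and with them removed the changes were −0.07 and −0.10 and did not pass (limma adjusted p = 0.527 and 0.374). The fall at 0 h also did not pass without replicate B of control cells (limma adjusted p = 0.268) or without either mutp53-depleted library at 0 h (0.0738 and 0.125), nor that at 16 h without replicate B of control cells (0.0847) or of mutp53-depleted cells (0.102). The change with TNF-α was −0.01 in control cells (95% interval −0.18 to 0.17) and −0.05 in mutp53-depleted cells (95% interval −0.23 to 0.13). Per kilobase of exon, ESRP1 made up 44.3% and 43.1% of the sum of both paralogs in untreated control libraries, 25% and 26.6% with TNF-α, 30.7% and 33.6% with depletion, and 13% and 15.5% with both. The sum itself went from 387 and 435 to 226 and 216 normalized reads per kb, so the shift toward ESRP2 came with less of the pair in all. These shares are a description, with no test.

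**Figure D2:**
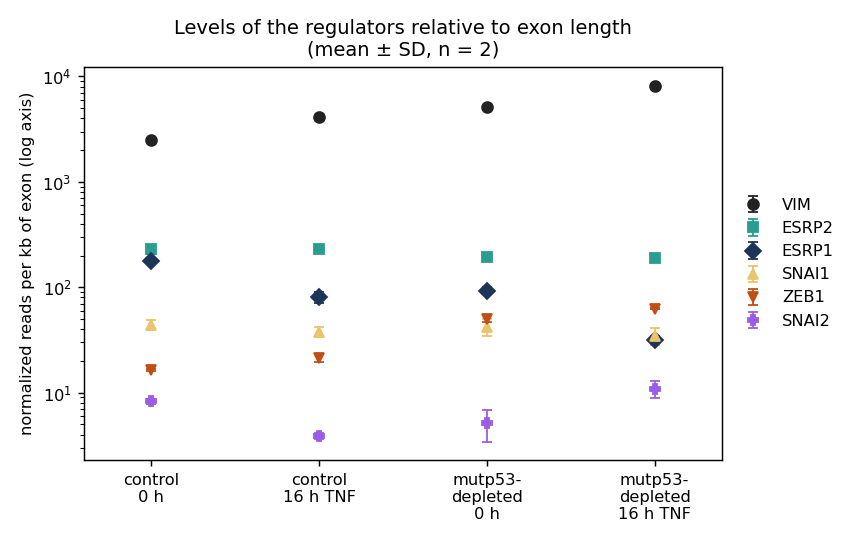
Levels of the 6 tested regulators per kilobase of exon (y axis, log scale; mean with SD, n = 2) in the 4 groups (x axis). VIM stands highest in every group, from 2501 to 8052 normalized reads per kb, and ESRP1 goes from 179 to 31.5 while ESRP2 stays between 189 and 231.

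Compared per kilobase, the order in untreated control cells was VIM (2501 ± 25.7, mean ± SD, n = 2), ESRP2 (231 ± 22.6), ESRP1 (179 ± 11.4), SNAI1 (43.9 ± 4.72), ZEB1 (16.5 ± 0.34) and SNAI2 (8.27 ± 0.5). In mutp53-depleted cells after TNF-α it was VIM (8052 ± 335), ESRP2 (189 ± 9.85), ZEB1 (62.7 ± 1.02), SNAI1 (34.6 ± 6.44), ESRP1 (31.5 ± 2.91) and SNAI2 (10.9 ± 1.95). SNAI1 and ESRP1 did not differ beyond their spread there, and neither did ZEB1 (50.4 ± 3.73) and SNAI1 (42.1 ± 7.72) in mutp53-depleted cells at 0 h. ZEB1 thus stood below SNAI1 in both control groups and above it in mutp53-depleted cells after TNF-α. In mutp53-depleted cells at 0 h the ratio of SNAI1 to ZEB1 was 0.767 and 0.896 (replicates A and B). ZEB1 was therefore the higher in each of these libraries too, though within the spread given above.

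Markers of other cell types were read beside these changes, since in bulk RNA fewer cells of a type and less RNA per cell cannot be told apart. The summed level of the 12 colon epithelium markers went from between 66263 and 70776 normalized reads in untreated control libraries to between 42716 and 43871 in mutp53-depleted libraries after TNF-α. KRT8 and KRT18 made up most of this level, and KRT19 went the other way, from 7394 and 7114 to 9957 and 10221. The 10 fibroblast markers summed to between 39.2 and 39.4 in untreated control libraries and between 29.9 and 32.9 after TNF-α. In mutp53-depleted libraries they summed to between 163 and 180 at 0 h and between 57.0 and 65.4 after TNF-α, with COL3A1, POSTN and DCN at 0 reads in all libraries. After depletion, most of this sum was COL1A1 (88.5 and 106 at 0 h, 48.6 and 50.6 after TNF-α) and PDGFRB (69.7 and 69.9, then 7.55 and 8.64). Each other fibroblast marker had 3.7 normalized reads or fewer in every library. The 8 endothelial markers summed to between 7.57 and 7.99 in untreated control libraries, 5.69 and 6.77 after TNF-α, 21.9 and 30.2 with depletion at 0 h and 17.6 and 29.6 with both. After depletion, most of the endothelial sum was VWF (28.8 and 21.9 at 0 h, 17.6 and 25.9 with TNF-α). The endothelial markers TEK, EMCN and KDR had no read in any library. The 10 leukocyte markers summed to between 22.8 and 41.9 over all libraries, with PTPRC, CD3D, MS4A1 and FCGR3A at 0. Within this sum, ITGAM went from 2.01 normalized reads or fewer at 0 h to between 11.4 and 27.7 after TNF-α. CD14 went from 34.8 and 21.2 to 12.6 and 9.96 with TNF-α in control cells, and from 13.4 and 15.1 to 7.55 and 4.94 after depletion. LYZ had 3.03 or fewer in control libraries and between 4.19 and 15.4 in mutp53-depleted ones. The part of these levels in the results for VIM, ZEB1 and ESRP1 was not tested.

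Among the 6 tested genes, 2 were called higher with depletion at 0 h (VIM and ZEB1), beside 5.89% of all genes tested, and 0 were called lower, beside 9.55%. Both edgeR tests and DESeq2 also called 0 lower, and 2 genes had an unadjusted p under 0.05 in that direction. By the adjusted p alone, 2 rose (27.3% of all genes) and 2 fell (25.2%). At 16 h, 2 were called higher (ZEB1 and SNAI2; 5.03% of all genes; ZEB1 alone with DESeq2) and 1 lower (ESRP1; 10.2%), and by the adjusted p alone 3 rose (24.9%) and 2 fell (26.5%). With TNF-α in control cells 0 were called higher (2.97%) by limma, both edgeR tests and DESeq2, 2 having an unadjusted p under 0.05 by limma, and 1 lower (ESRP1; 4.27%), while by the adjusted p alone 2 rose (11.1%; 1 with DESeq2) and 1 fell (15.2%). With TNF-α in mutp53-depleted cells limma and DESeq2 called 0 higher (1.86%), each edgeR test called 1 (SNAI2), 3 had an unadjusted p under 0.05 by limma, and 1 was called lower (ESRP1; 4.5%). By the adjusted p alone 1 rose there (9.8%), 3 with each edgeR test, and 1 fell (16.9%). The interaction was called for 0 members by limma, by edgeR's quasi-likelihood test and by DESeq2, with 0.655% of all genes higher and 2.21% lower, and 2 members had an unadjusted p under 0.05 by limma. With 6 genes, these counts are descriptions of the members and not a comparison with all genes. The contrasts share libraries, and their values are given side by side only.

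**Figure D3:**
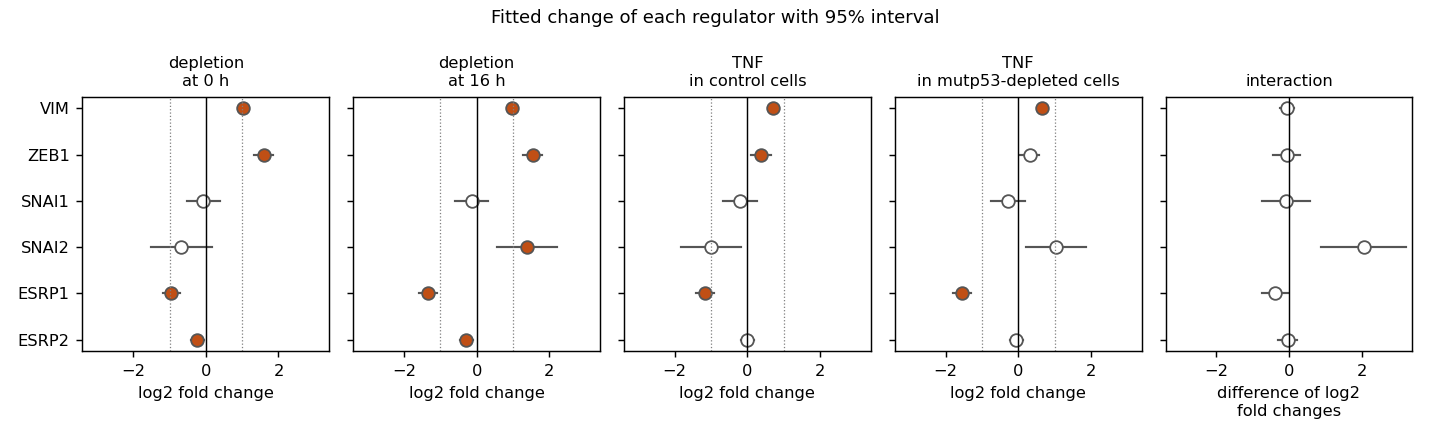
Fitted log2 fold change (x axis; points) with its 95% interval (lines) of the 6 tested regulators (y axis) in the 4 comparisons and the interaction. Filled points have a limma adjusted p under 0.05, dotted lines mark 2-fold, and SNAI2 lies at −1.01 with TNF-α in control cells and at 1.05 in mutp53-depleted cells.

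Genes with a pattern across the 8 libraries most like that of a member were named by the highest Pearson r of log2(normalized reads + 1), as a description over libraries that share 4 groups and their differences in depth. For VIM these were BAG1 and BTG1 (r = 0.9975 and 0.9973), for ZEB1 ANKRD40 and IQCJ-SCHIP1 (0.999 and 0.998), for ESRP1 PLEKHA2 and GSTM4 (0.9954 and 0.9949), and for ESRP2 PCNXL2 and ITPR3 (0.9853 and 0.9838). For SNAI1 they were POLR2J2 and SLC30A4 (0.9532 and 0.9418), and for SNAI2 NR4A3 and MTSS1L (0.9655 and 0.9592).

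The wider set of EMT transcription factors did not move as one. Of 20 other factors tested, 4 were called higher and 2 lower with depletion at 0 h (5.89% and 9.55% of all genes), and the same numbers at 16 h (5.03% and 10.2%). The medians were 0.18 and 0.26, beside 0.03 and −0.01 for all genes. With the neighbours' median removed, 2 and not 4 were called higher at each time. HMGA2, a chromatin protein that promotes EMT, rose in all 4 comparisons, from 616 ± 0.318 normalized reads in untreated control cells to 1283 ± 29.2 with TNF-α, 1353 ± 12.7 with depletion and 3084 ± 83.7 with both. PRRX1, a homeobox factor of mesenchymal cells, went from 13.7 ± 0.113 to 49.1 ± 9.27 with depletion at 0 h (log2 fold change 1.75, limma adjusted p = 0.000579), and fell to 3.58 ± 0.969 with TNF-α in control cells. Its paralog PRRX2 rose with depletion by 1.81 at 0 h and 1.44 at 16 h. ID2, which blocks the E proteins, fell with TNF-α in both lines, by 1.63 in control cells and by 1.58 after depletion. ID1 (−1.08) and ID3 (−1.51) were called lower with depletion at 0 h, and ID3 (−1.70) and TEAD2 (−1.17) at 16 h, and TEAD2 also fell with TNF-α in mutp53-depleted cells (−1.14). ID3 was called at neither time with DESeq2 (adjusted p = 0.0823 and 0.0652), nor was PRRX1 with TNF-α in control cells (0.0554). ID3 had 5.48 normalized reads or fewer in each mutp53-depleted library.

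Transcripts of proteins that work with the EMT factors or turn them over changed by less than 2-fold with depletion. Of 26 tested, limma, both edgeR tests and DESeq2 called 0 in either direction at 0 h or 16 h. Of all genes, limma called 5.89% higher and 9.55% lower at 0 h, and 5.03% and 10.2% at 16 h. By the limma adjusted p alone 13 rose and 4 fell at 0 h (27.3% and 25.2% of all genes), and 11 and 4 at 16 h (24.9% and 26.5%). With limma 14 and 4 at 0 h and 12 and 4 at 16 h had an unadjusted p under 0.05. NUAK1, a kinase, was called lower with TNF-α in control cells (897 ± 40.5 to 444 ± 3.96; log2 fold change −1.01), but by neither edgeR test nor DESeq2, where the change was −0.98, −0.98 and −0.97. LOXL2, a lysyl oxidase that stabilizes SNAI1, had a TNF-α response that was lower in mutp53-depleted cells (interaction −0.88, limma adjusted p = 0.000738).

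Mesenchymal genes went both ways. Of 23 tested, 7 were called higher and 5 lower with depletion at 0 h and 6 and 5 at 16 h, beside 5.89% and 9.55% of all genes at 0 h and 5.03% and 10.2% at 16 h. The medians were 0.17 and 0.27, beside 0.03 and −0.01 for all genes. DESeq2 called 3 higher at 16 h. SPARC, a secreted matrix protein, rose from 7.05 ± 0.735 to 1004 ± 22.9 normalized reads at 0 h (log2 fold change 6.97, limma adjusted p = 2.07e-14). COL5A1 had no read in any control library. Set against 3 reads per library, its level after depletion was at least 5.65-fold higher (0 h) and at least 6.5-fold higher (16 h), while CDH11 was called lower with 1.34 normalized reads or fewer in every mutp53-depleted library, though not with DESeq2 at 0 h (adjusted p = 0.178). COL6A1 (1214 ± 113 to 441 ± 10.6 at 0 h) and ACTA2, the smooth muscle actin of myofibroblasts (99.9 ± 13 to 19.1 ± 9.89), fell. MMP2 was called lower with TNF-α in control cells (−1.29), as was ACTA2 (−1.04), and the call of MMP2 was lost with edgeR's exact test (adjusted p = 0.0525) and DESeq2 (0.123). NT5E, the ecto-enzyme CD73, rose with TNF-α in both lines (88.2 ± 0.474 to 575 ± 31.1 in the control line and 195 ± 9.85 to 824 ± 12.2 after depletion). In mutp53-depleted cells CD44 was also called higher (1.10). PDGFRB fell with TNF-α in mutp53-depleted cells from 69.8 ± 0.17 to 8.1 ± 0.771. The interactions called included PDGFRB (−2.81) in one direction and TPM2 (0.81) and CD44 (0.42) in the other, of which DESeq2 called CD44, gave TPM2 an adjusted p of 0.0996 and gave PDGFRB none.

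Of 40 epithelial junction and polarity genes tested, 12 were called lower and 4 higher with depletion at 0 h (9.55% and 5.89% of all genes) and 16 lower and 2 higher at 16 h (10.2% and 5.03%), with medians of −0.53 and −0.71 beside 0.03 and −0.01 for all genes. By the adjusted p alone 25 fell at 0 h and 29 at 16 h, beside 25.2% and 26.5% of all genes, and with the neighbours' median removed 1 and 0 were called higher. ST14, the protease matriptase, went from 3868 ± 28.6 to 1080 ± 55.4 at 0 h, CLDN3, a tight junction claudin, from 189 ± 3.2 to 53.1 ± 11.1, and ERBB3, a receptor of the EGFR family, from 823 ± 27.5 to 148 ± 24.5 at 16 h. The median change of neighbouring genes at 0 h was −0.70 around CLDN3, −0.72 around COL6A1, 0.73 around PKP2 and 0.62 around HMGA2. PKP2, a desmosome protein, rose with depletion by 1.36 at 0 h and 1.03 at 16 h, and CD24 by 2.55 and 1.06. CD24 is placed on chromosome Y in the deposited data, so its reads may come from a near-identical copy. The neighbours' median around CD24 equalled its own change at both times, so the loss of its call on removal was fixed in advance. CDH1, the E-cadherin gene and the best known target of the SNAI and ZEB repressors, had the largest fall of the list with TNF-α in both lines. It went from 476 ± 12.9 to 82.6 ± 6.19 normalized reads in the control line (log2 fold change −2.51, SE 0.13, limma adjusted p = 1.06e-10) and from 270 ± 7.63 to 60.2 ± 2.14 after depletion (−2.15). With depletion CDH1 fell by 0.81 at 0 h and 0.45 at 16 h, short of 2-fold. CGN, the junction protein cingulin, was called higher with TNF-α in control cells (39.5 ± 16.9 to 148 ± 6.47) and had an interaction of −2.05, and JUP, plakoglobin, had one of −0.87. TJP3 was called lower with TNF-α in mutp53-depleted cells (50.1 ± 8.78 to 19.4 ± 8.18). There 6 of the 40 were called lower (4.5% of all genes) and 0 higher (1.86%). With TNF-α in control cells 1 was called lower (4.27%) and 1 higher (2.97%).

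Of 13 other epithelial transcription factors tested, 5 were called lower and 1 higher with depletion at 0 h (9.55% and 5.89% of all genes) and 6 and 1 at 16 h (10.2% and 5.03%). Their medians were −0.49 and −0.70, beside 0.03 and −0.01 for all genes. EHF, an ETS factor of epithelia, had 101 and 100 normalized reads in untreated control libraries and 13.4 and 9.6 in mutp53-depleted libraries at 0 h, and rose with TNF-α in mutp53-depleted cells (log2 fold change 2.21), with an interaction of 1.71. FOXA1 had 27.6 and 31.8 in untreated control libraries and 1.34 and 1.37 in the mutp53-depleted ones at 0 h, and FOXA2 went from 115 ± 5.89 to 12.1 ± 3.1 at 16 h. GATA6 rose from 7.45 ± 2.32 to 62 ± 3.39 at 0 h. HNF4A fell with TNF-α in mutp53-depleted cells (131 ± 5.54 to 40.5 ± 6.7) and, short of 2-fold, in control cells (log2 fold change −0.89). CDX2 fell in control cells (973 ± 11.4 to 464 ± 3.21) and, just short of 2-fold, after depletion (−0.98). ELF3 had the most negative interaction of the list (−2.06, limma adjusted p = 2.8e-05), as TNF-α raised it in the control line (0.79) and lowered it after depletion (−1.26), and HNF4A had one of −0.79, which DESeq2 did not call (adjusted p = 0.142).

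Of 16 splicing regulators that oppose or join the ESRPs, 9 rose and 2 fell with depletion at 0 h (27.3% and 25.2% of all genes) and 10 rose and 1 fell at 16 h (24.9% and 26.5%), with medians of 0.28 and 0.26. Most of these changes were under 2-fold. At 0 h, 2 were called higher and 0 lower (5.89% and 9.55% of all genes), and at 16 h 2 higher and 1 lower (5.03% and 10.2%). Both edgeR tests and DESeq2 also called 0 lower at 0 h, where 2 had an unadjusted p under 0.05. Each called 1 higher, QKI being lost at log2 fold changes of 0.98, 0.98 and 0.99. QKI rose from 442 ± 33.3 to 885 ± 56.9 at 0 h and MBNL1 from 1093 ± 33 to 2300 ± 64.9, while PTBP2 (79 ± 7.16 to 187 ± 1.03) was called higher and MBNL3 (80.9 ± 6.36 to 37.7 ± 9.48) lower at 16 h. The median change of the genes around MBNL1 was 0.80 at 0 h, and that around QKI −0.01. Of the 16 genes whose transcripts the ESRPs are known to splice, FGFR2 was called lower with depletion at 0 h (127 ± 15.9 to 59.3 ± 4.31) and with TNF-α in control cells (127 ± 15.9 to 41.9 ± 4.97), CD44 higher with TNF-α in mutp53-depleted cells, and CD44 (0.42) and CTNND1 (−0.39) had called interactions. The table holds 1 value per gene, so splice forms, the usual readout of ESRP activity, are not seen.

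The relatives and partners of vimentin showed little common movement with it. Of 12 tested, NES, the intermediate filament nestin, went from 2516 ± 80.3 to 617 ± 64.3 with depletion at 0 h and from 2248 ± 74.7 to 396 ± 61.9 at 16 h, opposite to VIM. PRPH was called higher with depletion from 4.35 normalized reads or fewer in every control library to between 6.71 and 18.1, and DES lower with TNF-α (19.7 ± 4.26 to 3.12 ± 2.41 in the control line, 22.1 ± 5.63 to 6.02 ± 0.212 after depletion). With DESeq2, PRPH was called at neither time and DES in the control line only, and neither edgeR test called PRPH at 16 h.

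Among 21 TGF-β and other inducers of EMT, TNF-α raised 5 past the 2-fold limit in the control line (2.97% of all genes) and 2 after depletion (1.86%), and the difference between these counts was not tested. JAG1, a Notch ligand, rose from 486 ± 6.34 to 1511 ± 138 and from 495 ± 25.1 to 1206 ± 239. NFKB1, a subunit of NF-κB, rose from 602 ± 13.5 to 1520 ± 42.5 in control cells and, short of 2-fold, after depletion (log2 fold change 0.88). MET, the receptor of hepatocyte growth factor, rose in both lines. It went from 280 ± 28.4 to 704 ± 18.9 in control cells and from 147 ± 0.933 to 475 ± 25.7 after depletion. With depletion TGFB2 rose at 0 h (48.8 ± 11.1 to 225 ± 6.99), EGFR fell (1524 ± 184 to 603 ± 21.7) and NOTCH1 fell (2526 ± 346 to 1026 ± 27.1), and at 16 h EGFR and BMP4 (2396 ± 45.2 to 844 ± 3.01) fell. The median change of the genes around EGFR, on chromosome 7, was −0.83 at 0 h. TGFB2 (−1.33), SMAD3 (−0.65) and NOTCH1 (0.57) had called interactions.

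**Figure D4:**
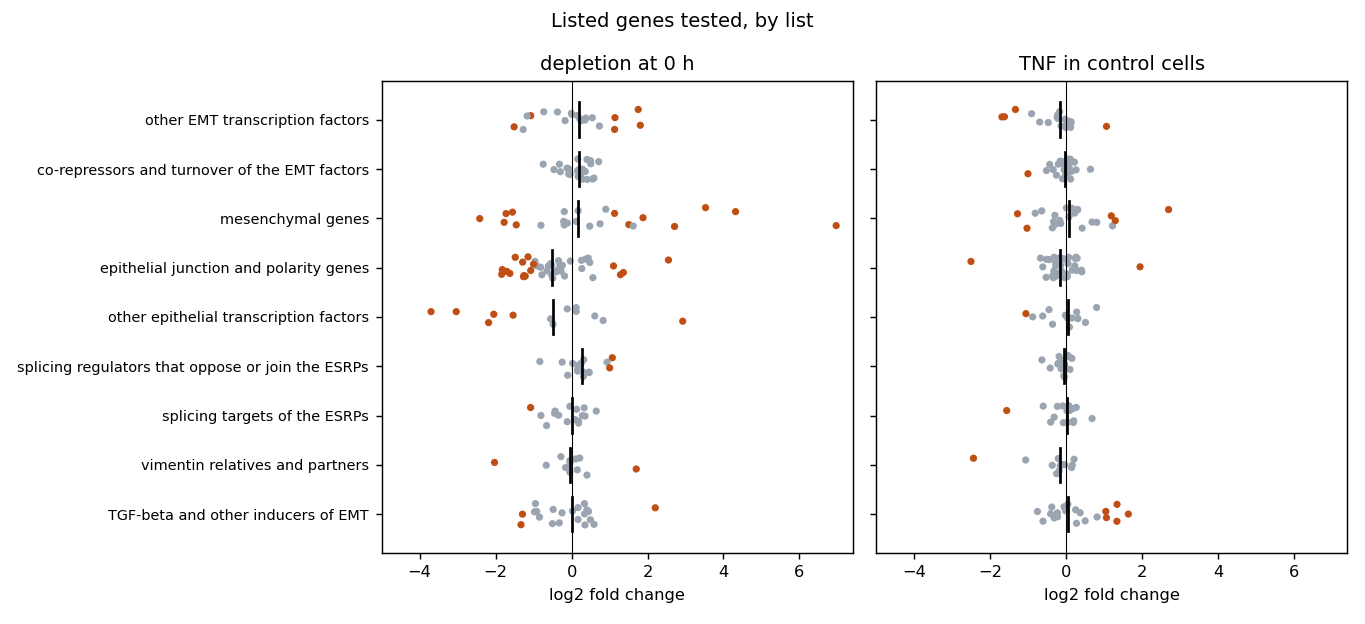
Log2 fold change (x axis) of each tested gene of the 9 lists (rows; points spread vertically for visibility) with depletion at 0 h (left) and TNF-α in control cells (right), with called genes in orange and the list median as a black bar. With depletion, the epithelial junction genes have a median of −0.53 and the mesenchymal genes one of 0.17, with called genes on both sides.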

How the data were processed

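The mRNA-seq libraries of SW480 cells (4 groups of 2 biological replicates) were analysed here; the ChIP-seq, GRO-seq and input samples were not used. Per the methods, single-end reads of 50 bases were aligned with STAR, and per the file header they were counted on RefSeq exons with a HOMER program, following the strand of the dUTP libraries. The deposited signal values are these reads times 1 factor per library, which gives all libraries a common total. Their table also holds log2 fold changes, p-values and adjusted p-values of 4 comparisons made with edgeR, which were not used. The header and coordinates of the table give hg19, whereas the labels and methods name hg38. Each value was divided by the value of 1 read to give back whole reads, and at least 99.97% of values came out whole within 0.0051. Reads on genes were between 6108488 and 13809578 per library; the limits given for 0 reads cover counting error only, whereas the 95% intervals of fold changes come from the spread between replicates. The 2 replicates of each group were further apart than sampling noise (chi-square 2.07 to 3.93 per gene).

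Values were tested with limma 3.58.1 in R 4.3.3 (trend) as log2(value + 1), with a mean of at least 2.5, in a model of 4 group means. The added 1 understates the changes of weak genes. The interaction, the depletion effect at 16 h minus that at 0 h, was called on the adjusted p alone. The study's methods used edgeR on counts, and count tests on the recovered reads served as alternatives: edgeR 4.0.16 (quasi-likelihood and exact) and DESeq2 1.42.0. Other alternatives were median-ratio scaling, pseudocounts of 0.1 and 5, no filter or a minimum mean of 10, and the replicate letter as a block. The median of a window of up to 51 neighbouring genes, the gene itself included, was also removed. Each of the 8 libraries was left out in turn. The procedure was tested on simulated data. The members and gene lists were chosen with earlier results of these data known. Genes named were the members, up to 2 largest rises and falls among the called genes of each list and comparison, and the 2 genes most like each member with a mean of at least 10; some genes are not reported here. Promoter sequences came from RefSeq (GRCh38.p14). Python 3.11.15, numpy 2.4.6, pandas 2.3.3 and matplotlib 3.10.9 were used.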

Additional observations from a re-analysis of the deposited data

Results flagged for a closer look

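SNAI2 was marked because its values with TNF-α went opposite ways in the 2 lines, lower in both control replicates and higher in both mutp53-depleted replicates. The difference between the responses was 2.06 on the log2 scale, and it was tested: limma gave an unadjusted p of 0.00169 and an adjusted p of 0.0558, short of 0.05. Over the 17 alternatives that gave an interaction, the difference lay between 1.61 and 2.38 and the adjusted p between 0.0296 and 0.261. SNAI2 had 25, 11, 8 and 6 reads in the control libraries and 20, 6, 24 and 21 in the mutp53-depleted libraries, so each value rests on few reads. No search for single outlying libraries was possible with 2 libraries per group.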

How the results depend on the processing

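The members called in either direction with depletion at 16 h (3) and with TNF-α in control cells (1) stayed within 1.5 times these counts in all alternatives, although those called higher at 16 h went from 2 to 1 with DESeq2 and without replicate B of mutp53-depleted cells at 16 h, SNAI2 being lost. With depletion at 0 h, both edgeR tests and removal of the neighbours' median gave 1 in place of 2, VIM being lost at a log2 fold change just under the limit in edgeR (1.00 and 1.00 when rounded) and at 0.60. With TNF-α in mutp53-depleted cells, median-ratio scaling, both edgeR tests and removal of the neighbours' median gave 2 in place of 1, SNAI2 being added. The interaction gave 1 in place of 0 with a pseudocount of 5 and with the neighbours' median removed, again SNAI2 (1.61 and 2.11). Without 1 library at a time, VIM with depletion at 16 h passed 2-fold without replicate A of control (1.01) or mutp53-depleted cells (1.02) at 16 h, and ESRP1 at 0 h without replicate A of control (−1.01) or replicate B of mutp53-depleted cells (−1.03). Values close to 0 changed sign, none of them called: the ESRP2 response to TNF-α with median-ratio scaling, both edgeR tests and DESeq2 was 0.04 each time in the control line and 0.02, 0.01, 0.01 and 0.02 after depletion; with the neighbours' median removed the interaction was 0.06 for SNAI1, 0.10 for ZEB1 and 0.22 for VIM. Leaving out 1 library, SNAI1 lay between −0.25 and 0.12 with depletion at 0 h, −0.33 and 0.05 at 16 h and −0.26 and 0.11 for the interaction, ZEB1 between −0.16 and 0.04 for the interaction, and ESRP2 between −0.10 and 0.09 with TNF-α in the control line, −0.10 and 0.01 after depletion and −0.14 and 0.06 for the interaction. The causes were not tested. The replicate letters did not pair the samples (correlations of deviations −0.019 to 0.074), and the block changed no member's call. Of 534 alternative values for members, 493 kept direction and call. Of 882 alternative list counts, 57 moved by more than 1.5 times. With few reads, SNAI2, OVOL1 and GRHL2 limit what can be seen.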
